A study of Mus musculus with 6 samples.

Results

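The genes described here make, break down, bind and sense retinoic acid. They were 2 breakdown enzymes (*Cyp26a1*, *Cyp26b1*), 3 synthesis enzymes (*Aldh1a1*, *Aldh1a2*, *Aldh1a3*), 3 nuclear receptors (*Rara*, *Rarb*, *Rarg*) and 1 cellular binding protein (*Crabp2*). They were chosen by symbol, 9 of the 23418 gene symbols counted in each of 2 tissues, and all 9 had a row in both tables. One tissue was the luminal layer of mouse uteri, isolated by laser microdissection, and the other was blastocysts flushed out of the horns, both at 8 pm on day 4 of pregnancy. The dams were *Lif*-floxed/floxed given PBS (control), *Lif*-floxed/floxed *Ltf*-Cre/+ given PBS (*Lif* eKO), and *Lif*-floxed/floxed *Ltf*-Cre/+ injected at 10 am and at 6 pm with 20 µg of recombinant leukemia inhibitory factor (rLif) and dissected 2 h after the second dose. The *Ltf* promoter drives Cre in the uterine epithelium, so stroma and muscle are not targeted, and all dams carried the floxed allele. Blastocysts were labelled *Lif*-floxed/+ in all 3 groups, so these groups differed by the dam. Each of the 6 groups was 1 library of RNA pooled over several animals or blastocysts. There were no replicates, no p-value is given, and every difference below is between 2 libraries.

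Retinoic acid is made from vitamin A: retinol dehydrogenases oxidise retinol to retinaldehyde, and the Aldh1a enzymes oxidise retinaldehyde to retinoic acid. Crabp2 carries retinoic acid to the nucleus, where receptors of the Rar family, paired with Rxr, bind DNA at direct repeats and switch target genes on. Cyp26 enzymes hydroxylate retinoic acid and so remove it from the cell. In the uterus, *Cyp26a1* is known as a gene of the luminal epithelium that is induced by progesterone around the time of implantation. *Rarb* and *Cyp26a1* are also textbook targets of retinoic acid itself.

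Total counts ranged from 18996158 to 28460465 per library. In the luminal libraries, all 7 markers of uterine epithelium were present (4582 to 6131 summed CPM, CPM being counts scaled to a common library size by TMM), whereas 5 of 6 inner cell mass markers were at 0 in each. All 6 inner cell mass markers had at least 10 counts in each blastocyst library. So did the 7 epithelial markers, with 7793 to 8288 summed CPM. The epithelial list alone therefore does not tell the 2 tissues apart. The targeted gene did not fall as the luminal labels would have it. *Lif* (chromosome 11, 4257568 to 4272514) had 0 counts in the control-labelled luminal library, 28 in the eKO-labelled library and 0 in the rLif-labelled library, at least 8.20-fold higher in the eKO-labelled library than in the control-labelled library. *Lif* is known on day 4 as a gene of the uterine glands, so a luminal layer with no *Lif* counts need not go against a control label, and counts over the whole gene cannot single out the deleted exons. Whether the labels are right cannot be told from these counts. Luminal libraries are therefore named by their labels throughout. A gene is said to be called where the 95% counting interval of its ratio lay beyond 2-fold in its whole width. *Socs3*, a feedback inhibitor that Lif signalling induces, had 58.7, 5.33 and 163 CPM in the luminal control-, eKO- and rLif-labelled libraries. In blastocysts *Lif* had 1447, 1736 and 1250 counts.

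Letters upstream of the start sites are shown for *Cyp26a1* and *Rarb*. Among the 7 genes with a promoter window, these were the 2 whose window held a repeat of a kind that Rar and Rxr are known to bind. The sequences are RefSeq's, on GRCm38.p6, and run 5′ to 3′ on the gene's strand up to the base before the start site. Capitals mark a direct repeat of 2 half-sites spaced by 5 bases. *Cyp26a1* is shown for chr19:37697558-37697807 (plus strand), and *Rarb* for chr14:16575477-16575726 (minus strand), where the RefSeq start site lies upstream of the exons counted here.
Cyp26a1: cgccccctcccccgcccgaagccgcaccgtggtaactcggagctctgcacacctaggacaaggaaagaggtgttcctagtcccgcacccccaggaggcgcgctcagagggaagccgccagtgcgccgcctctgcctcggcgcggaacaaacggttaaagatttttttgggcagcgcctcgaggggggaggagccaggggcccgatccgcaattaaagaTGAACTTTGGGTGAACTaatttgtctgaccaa
Rarb: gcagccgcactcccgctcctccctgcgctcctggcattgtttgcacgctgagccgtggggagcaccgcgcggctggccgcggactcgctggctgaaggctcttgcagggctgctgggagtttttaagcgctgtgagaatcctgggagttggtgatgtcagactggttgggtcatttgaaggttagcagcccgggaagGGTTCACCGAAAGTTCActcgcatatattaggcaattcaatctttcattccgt
The half-site searched, on either strand, was the consensus AGGTCA or the variants AGTTCA or GGGTCA or GGTTCA. In *Cyp26a1* the repeat read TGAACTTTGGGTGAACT, on the opposite strand to the gene, from 32 to 16 bases before the start site. In *Rarb* it read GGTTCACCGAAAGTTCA, on the strand of the gene, from 53 to 37 bases before the start site. Such a repeat was in 32 of 32851 mouse promoter windows (0.0974%), each running from 250 bases before to 50 after a start site. A direct repeat spaced by 2 bases was also searched. It was in 88 of these windows (0.268%) and in no window of the genes described here. Single half-sites were in 43.7% of windows. A Stat binding motif (TTCNNNGAA) was in 8.30% of windows. It was present in *Rarb*, where it overlapped the repeat, and in 1 window of *Rara*. Of the 31 genes with the repeat spaced by 5 bases in a window, 8 were measured in the luminal layer. *Cyp26a1* was the only gene of these 8 called in the eKO-labelled library against control, beside 17.2% of all genes. In the rLif-labelled library, 1 of the 8 was called against control (*Prokr2*, higher), beside 9.16% of all genes. Against the eKO-labelled library, 2 were called (*Cyp26a1* and *Prokr2*, higher), beside 15.6%. In blastocysts 8 were measured. In eKO against control, *Ppbp* was called higher and *Tnfsf13b* lower, beside 3.15% of all genes. In eKO with rLif, *Cyp26a1* was called lower against control (beside 4.94%), and *Cyp26a1* and *Syndig1* lower against eKO (beside 3.75%). A match in letters does not show that a receptor binds there.

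*Cyp26a1* (chromosome 19, 37697808 to 37701536, plus strand) encodes the main retinoic acid hydroxylase. It had 136285 counts in the control-labelled luminal library, 2545 in the eKO-labelled library and 115011 in the rLif-labelled library. The control- and rLif-labelled libraries were thus both high, and the eKO-labelled library stood far below them. Per length these were 5306 TPM (counts per base of exon, scaled to the same sum in every library), 77.2 TPM and 3557 TPM, or ranks 13, 1905 and 27 among all genes of the library. *Cyp26a1* was 60.9-fold lower in the eKO-labelled library than in the control-labelled library (log2 ratio -5.93, exact 95% Clopper-Pearson interval of the ratio of scaled counts -5.99 to -5.87). It was 49.8-fold higher in the rLif-labelled library than in the eKO-labelled library (log2 ratio 5.64, interval 5.58 to 5.70). Under edgeR's exact test with the study's limits, both differences were called at an assumed dispersion of 0.1 and neither at 0.4, a value that 1 library per group cannot estimate. The rLif-labelled library was 1.22-fold below control (log2 ratio -0.29, interval -0.30 to -0.28). These intervals cover counting error only and not variation between animals, because each group was 1 pooled library. Reads from PCR carried no molecular identifiers and may be copies of 1 molecule, so the intervals may be too narrow even for counting error. In a bulk sample, fewer cells of a type and less RNA per cell cannot be told apart.

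The epithelial marker list did not fall with *Cyp26a1*. Its summed CPM was 4582, 6131 and 4695 in the control-, eKO- and rLif-labelled libraries, and that of the 6 luminal epithelium markers was 3183, 8377 and 7708. The neighbouring breakdown gene *Cyp26c1*, whose last exon base lies 4500 bases upstream of the first exon base of *Cyp26a1*, had 989, 526 and 1644 counts. Its log2 ratio was -1.10 for the eKO-labelled library against control (interval -1.25 to -0.94) and 1.79 for the rLif-labelled library against eKO (interval 1.64 to 1.93). *Cyp26c1* was therefore lowest in the same library as *Cyp26a1*, with a smaller difference. In the 2 luminal log2 ratios against control, the 5 genes nearest to *Cyp26a1* among 11780 with at least 100 counts in some luminal library were *Tll1*, *Slco4a1*, *Slc10a2*, *Xkr5* and *Btbd17*. The distance to the nearest, *Tll1*, was 0.50 on the log2 scale. *Tll1* (a secreted metalloprotease) had 2767, 42 and 1774 counts, and *Slco4a1* (an organic anion transporter) had 341, 5 and 371. *Slc10a2* (a bile acid transporter) and *Btbd17* had 0 counts in the eKO-labelled library. Their ratios there were computed with a floor of 3 counts, so their places among the nearest genes depend on that floor.

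In blastocysts *Cyp26a1* was a low transcript, with 52 counts in control, 47 in eKO and 9 in the rLif group (3.45, 3.07 and 0.582 TPM). Control and eKO lay together and the rLif group was lower. The log2 ratio was -2.56 for eKO with rLif against control (interval -3.77 to -1.52) and -2.38 against eKO (interval -3.59 to -1.33). Control and eKO blastocysts differed 1.13-fold (log2 ratio -0.18, interval -0.78 to 0.42), where the luminal libraries with these labels differed 60.9-fold. The 6 luminal epithelium markers also summed to less in the rLif group of blastocysts (522, 516 and 325 CPM in control, eKO and eKO with rLif). Their part in the *Cyp26a1* difference was not tested.

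*Cyp26b1* (chromosome 6, 84571414 to 84593908, minus strand) encodes a related hydroxylase and was near the limit of detection everywhere. It had 2, 23 and 0 counts in the luminal control-, eKO- and rLif-labelled libraries, and 4, 0 and 11 counts in the corresponding blastocyst groups. Its highest luminal count was thus in the library where *Cyp26a1* was lowest. The ratio of the eKO-labelled library to control rested on 2 counts in control and was 10.1-fold (log2 ratio 3.34, interval 1.32 to 6.47). *Cyp26b1* was at least 6.95-fold lower in the rLif-labelled library than in the eKO-labelled library, computed against a floor of 3 counts in the library at 0. In blastocysts it was at least 3.69-fold higher in eKO with rLif than in eKO. Even at its highest, *Cyp26b1* reached only 0.256 TPM in the luminal layer and 0.261 TPM in blastocysts. *Cyp26a1* held 82.3% to 99.3% of the counts of *Cyp26a1*, *Cyp26b1* and *Cyp26c1* in the luminal libraries.

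**Figure D1:**
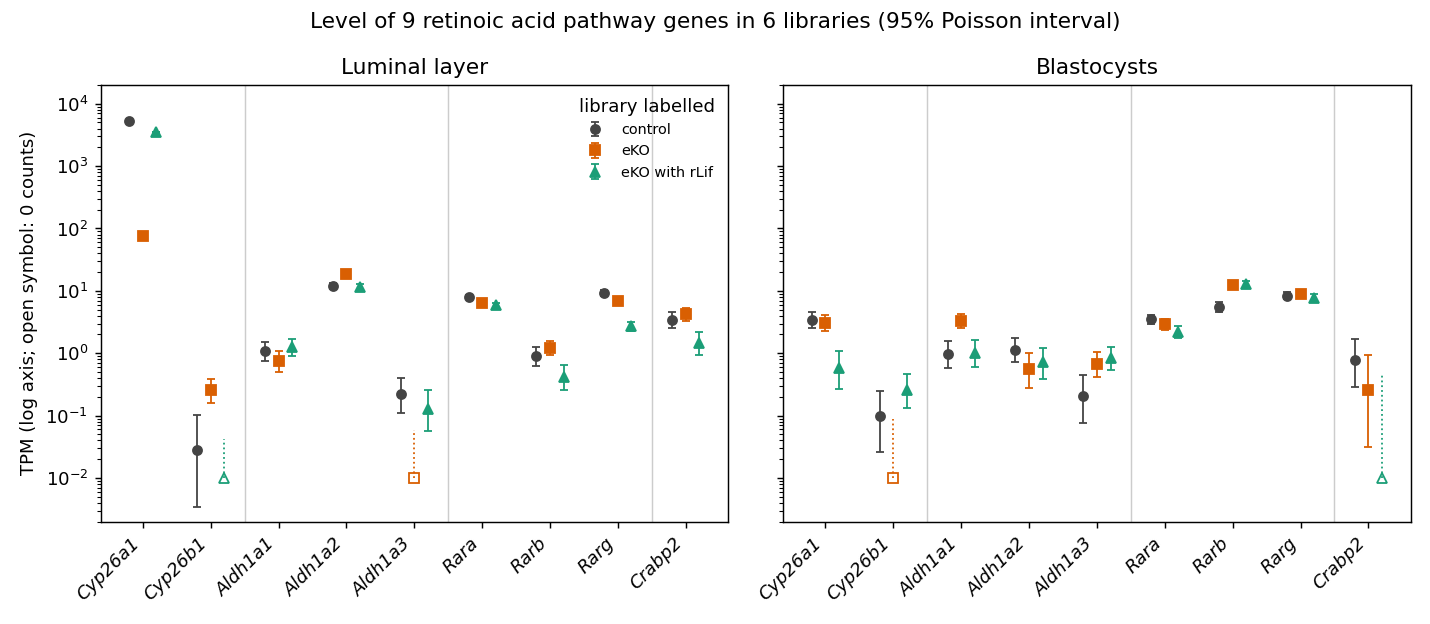
TPM on a log axis for the 9 genes in the 3 luminal and 3 blastocyst libraries, with points for single libraries, bars for the 95% Poisson interval of the count, and open symbols near the lower edge for 0 counts with a dotted line to the upper limit. Luminal *Cyp26a1* stands at 5306 and 3557 TPM in the control- and rLif-labelled libraries and at 77.2 TPM in the eKO-labelled library, while the next highest value of any of the 9 genes is 18.9 TPM (*Aldh1a2*).

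The enzymes of the last synthesis step were represented mainly by *Aldh1a2* in the luminal layer. *Aldh1a2* (chromosome 9, 71215789 to 71296243, plus strand), the chief embryonic retinaldehyde dehydrogenase, had 391, 793 and 482 counts in the control-, eKO- and rLif-labelled libraries. These were 12.0, 18.9 and 11.7 TPM, highest in the eKO-labelled library, and 89.5% to 96.2% of the summed TPM of the 3 Aldh1a genes. The log2 ratio of the eKO-labelled library to control was 0.83, and its interval (0.66 to 1.01) crossed the 2-fold limit, so it was not called. The rLif-labelled library was lower than the eKO-labelled library by a log2 ratio of -0.58 (interval -0.74 to -0.41). The summed CPM of the 10 stroma markers had the same order as the *Aldh1a2* counts (894, 1411 and 934). All 10 had at least 10 counts in each luminal library. Of the 10, 2 were called higher in the eKO-labelled library than in control and 0 lower. Their median log2 ratio was 0.34 in that comparison and -0.13 for the rLif-labelled library against control. The part of these markers in the *Aldh1a2* difference was not tested. In blastocysts *Aldh1a2* had 22, 11 and 14 counts in control, eKO and eKO with rLif, and the intervals of all 3 ratios included 0.

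*Aldh1a1* (chromosome 19, 20601982 to 20643462, plus strand), a retinaldehyde dehydrogenase of adult tissues, had 32, 28 and 46 counts in the luminal control-, eKO- and rLif-labelled libraries, about 1 TPM in each. None of these ratios was called. The near-identical gene *Aldh1a7* (5, 25 and 6 counts) could share reads with it, which makes *Aldh1a1* uncertain. With both genes summed, the log2 ratio of the rLif-labelled library to the eKO-labelled library was 0.11, against 0.86 for *Aldh1a1* alone. In blastocysts, where *Aldh1a7* had 0 counts in every group, *Aldh1a1* had 17, 58 and 18 counts in control, eKO and eKO with rLif. The eKO group was the high group. Its log2 ratio to control was 1.73 (interval 0.93 to 2.61), and eKO with rLif against eKO gave -1.68 (interval -2.53 to -0.90), so neither interval lay wholly beyond 2-fold. The summed CPM of the 7 immune markers had the same order of control and eKO in these libraries (61.7, 127 and 22.4). Of the 7, 0 were called higher and 1 lower (*Cd3e*) in eKO against control. The part of these markers was not tested.

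*Aldh1a3* (chromosome 7, 66390893 to 66427477, minus strand) was the least abundant enzyme of this step in the luminal layer. It had 11, 0 and 8 counts in the control-, eKO- and rLif-labelled libraries. It was at least 4.17-fold lower in the eKO-labelled library than in control and at least 2.94-fold higher in the rLif-labelled library than in the eKO-labelled library, and only the former was called. In blastocysts it had 6, 20 and 25 counts, lowest in control. The log2 ratios to control were 1.70 for eKO (interval 0.33 to 3.31) and 2.03 for eKO with rLif (interval 0.71 to 3.61). Neither was called, since both intervals reached below 2-fold.

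Set against each other per length, breakdown and synthesis transcripts were far apart in 2 luminal libraries. Summed TPM of the 3 Cyp26 genes was 403 times that of the 3 Aldh1a genes in the control-labelled library, 4.87 times in the eKO-labelled library and 276 times in the rLif-labelled library. In blastocysts the same ratio was 1.51, 0.737 and 0.442 in control, eKO and eKO with rLif. These are ratios of transcripts and say nothing of enzyme activity or of retinoic acid, which was not measured in these files.

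*Rara* (chromosome 11, 98937696 to 98974942, plus strand), a broadly expressed receptor, was the steadiest of the 9 genes in the luminal layer. It had 476, 495 and 445 counts in the control-, eKO- and rLif-labelled libraries. All 3 log2 ratios lay between -0.14 and -0.01, and their intervals included 0 and reached no further than -0.33 and 0.18. In blastocysts it had 122, 103 and 80 counts in control, eKO and eKO with rLif. There the log2 ratio of eKO with rLif to control was -0.64 (interval -1.06 to -0.22), which was not called.

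*Rarg* (chromosome 15, 102234940 to 102257483, minus strand), a receptor best known from skin, was close to *Rara* per length in 2 luminal libraries and lower in the third. It had 428 counts in the control-labelled library, 412 in the eKO-labelled library and 157 in the rLif-labelled library (9.24, 6.93 and 2.69 TPM). The rLif-labelled library was thus the low library, and the eKO-labelled library was close to control. *Rarg* was 2.81-fold lower in the rLif-labelled library than in control (log2 ratio -1.49, interval -1.76 to -1.22). Against the eKO-labelled library the log2 ratio was -1.25, with an interval (-1.52 to -0.98) that just crossed the limit, and it passed when libraries were scaled by total counts. The summed CPM of the 7 smooth muscle markers was also lowest in the rLif-labelled library (79.1, 67.3 and 36.2 in the control-, eKO- and rLif-labelled libraries). The part of these markers was not tested. In blastocysts *Rarg* had 227, 243 and 215 counts, and the intervals of all 3 ratios included 0.

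*Rarb* (chromosome 14, 16430840 to 16575210, minus strand), the receptor gene that retinoic acid itself induces, was low in the luminal layer and led the receptors in 2 of 3 blastocyst groups. Its luminal counts were 36, 62 and 21 in the control-, eKO- and rLif-labelled libraries. The log2 ratio of the rLif-labelled library to the eKO-labelled library was -1.42 (interval -2.21 to -0.69), which was not called. In blastocysts its count was 131 in control, 294 in eKO and 309 with rLif (5.57, 12.3 and 12.8 TPM). Blastocysts from both eKO groups were thus close to each other and above control. The log2 ratios to control were 1.13 (interval 0.83 to 1.44) and 1.21 (interval 0.91 to 1.52). Neither interval included 0, but neither lay wholly beyond 2-fold. The 2 comparisons share the control library, so they are not independent. *Rarb* and *Cyp26a1*, which share the repeat printed above, had log2 ratios of opposite sign in blastocysts of eKO with rLif against control (1.21 and -2.56).

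The make-up of the receptor family differed between the tissues. *Rarb* was 32.0%, 51.3% and 56.3% of summed receptor TPM in control, eKO and eKO with rLif blastocysts, and 4.96%, 8.26% and 4.61% in the corresponding luminal libraries. *Rara* was 44.1%, 44.3% and 65.6% of summed receptor TPM in the luminal control-, eKO- and rLif-labelled libraries. Summed receptor TPM was 18.1, 14.6 and 9.05 in these luminal libraries and 17.4, 24.0 and 22.8 in blastocysts.

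**Figure D2:**
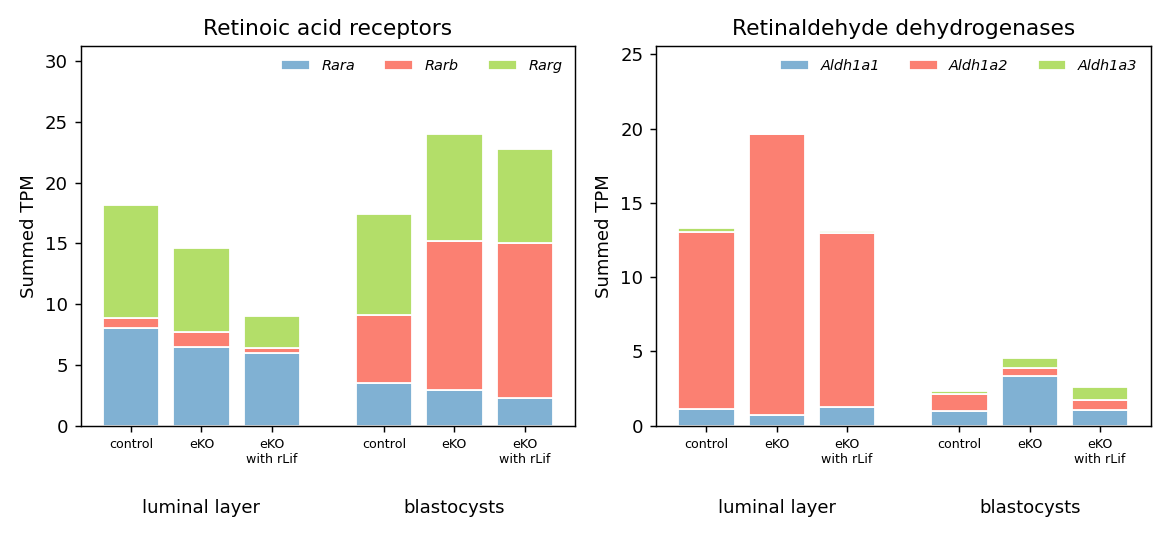
Stacked bars, starting at 0, of summed TPM of the 3 retinoic acid receptor genes (left) and the 3 Aldh1a genes (right) in each library, without error bars. *Rarb* takes 32.0% to 56.3% of receptor TPM in blastocysts and at most 8.26% in the luminal layer, and *Aldh1a2* fills most of the luminal Aldh1a bars.

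*Crabp2* (chromosome 3, 87948693 to 87953372, plus strand), the binding protein, had 45, 71 and 24 counts in the luminal control-, eKO- and rLif-labelled libraries. The rLif-labelled library was lowest, with log2 ratios of -0.95 to control (interval -1.73 to -0.21) and -1.42 to the eKO-labelled library (interval -2.16 to -0.74), and neither was called. In blastocysts it had 6, 2 and 0 counts, and with a sum under 10 it was the only gene of the 9 to fail the filter on low counts. Its 0 counts in blastocysts of eKO with rLif leave room for a level of up to 0.154 CPM (3 counts). The sister gene *Crabp1* had 90, 176 and 154 counts in the luminal libraries and 0 counts in each blastocyst library.

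The 9 genes were next counted by comparison, beside the share of all genes called in the same comparison. For the eKO-labelled luminal library against control, 3 of 9 were called: *Cyp26a1* and *Aldh1a3* lower and *Cyp26b1* higher. Of all 15694 genes measured in the luminal layer, 17.2% were called in this comparison. For the rLif-labelled library against control, 1 of 9 was called (*Rarg*, lower), beside 9.16% of all genes. For the rLif-labelled library against the eKO-labelled library, 2 of 9 were called (*Cyp26a1* higher, *Cyp26b1* lower), beside 15.6% of all genes. Counts of this size cannot be set apart from the background, and 2 of the 3 genes called in the first comparison had at most 23 counts in any luminal library.

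For blastocysts, none of the 8 genes that passed the filter was called in eKO against control, beside 3.15% of all 14873 genes measured. In eKO with rLif against control 1 of 8 was called (*Cyp26a1*, lower), beside 4.94% of all genes. In eKO with rLif against eKO 2 of 8 were called (*Cyp26a1* lower, *Cyp26b1* higher), beside 3.75% of all genes. Median log2 ratios of the members, with a gene at 0 in 1 library set at its bound and *Cyp26b1* left out of luminal eKO with rLif against control (0 and 2 counts), were -0.13, -0.40 and -0.58 in the 3 luminal comparisons and -0.06, -0.03 and -0.04 in blastocysts, while the medians of all genes lay between -0.01 and 0.01.

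**Figure D3:**
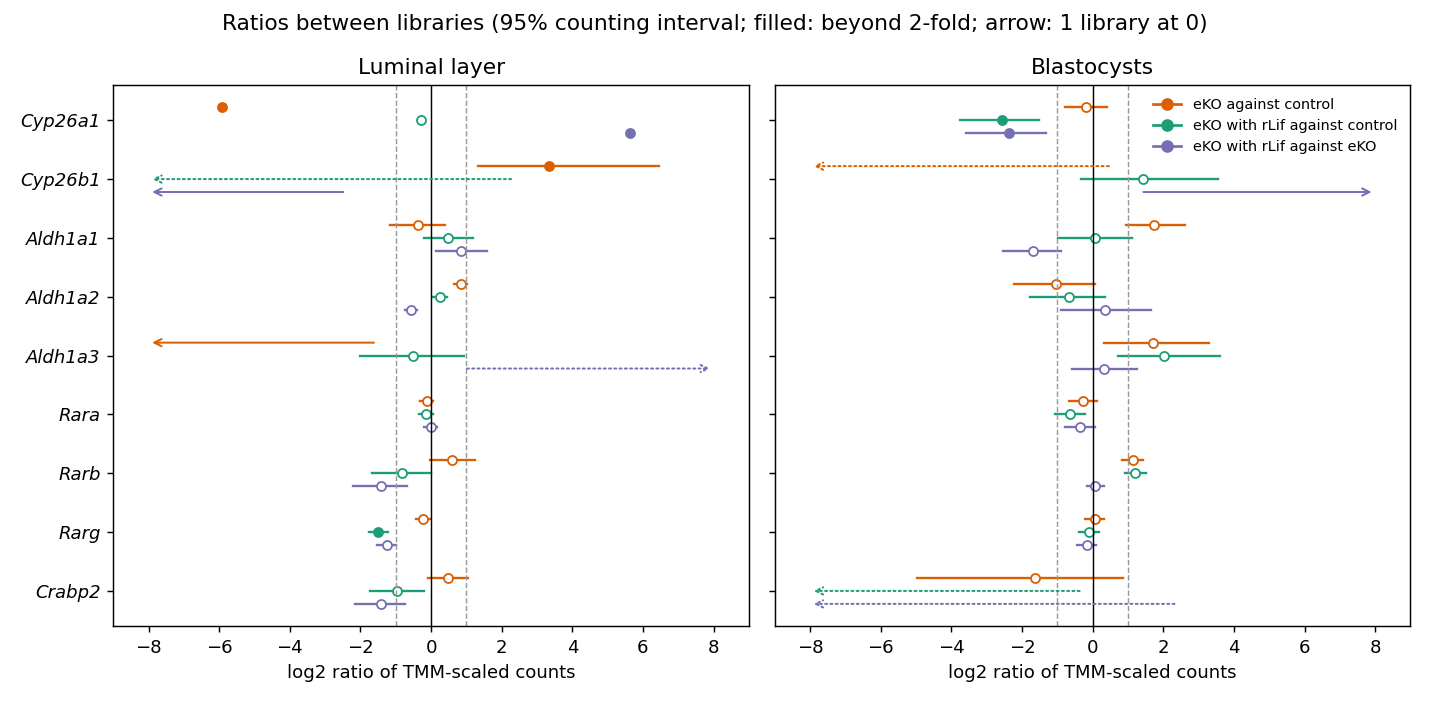
Log2 ratios between libraries for the 9 genes with 95% counting intervals, 3 comparisons per gene, for the luminal layer (left) and blastocysts (right), with filled points and solid arrows for called genes and arrows from the interval's bound where 1 library had 0 counts. *Cyp26a1* lies at -5.93 and 5.64 in the luminal layer and at -2.56 and -2.38 in blastocysts, and most other intervals reach inside the dashed 2-fold limits.

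Between tissues, levels are descriptions, since the tables were made separately. All 3 luminal libraries lay above all 3 blastocyst libraries in TPM for 4 of the 9 genes (*Cyp26a1*, *Aldh1a2*, *Rara*, *Crabp2*), as did 28% of all genes. All 3 blastocyst libraries lay above the luminal libraries for 1 gene, *Rarb* (5.57 to 12.8 TPM against 0.417 to 1.21), as did 45.4% of all genes. The 2 tissues overlapped for *Cyp26b1*, *Aldh1a1*, *Aldh1a3* and *Rarg*. Within the control-labelled luminal library the order per length was *Cyp26a1*, *Aldh1a2*, *Rarg*, *Rara*, *Crabp2*, *Aldh1a1*, *Rarb*, *Aldh1a3* and *Cyp26b1*, and the intervals of *Rarg* and *Rara* and of *Aldh1a1* and *Rarb* overlapped. In control blastocysts the order was *Rarg*, *Rarb*, *Rara*, *Cyp26a1*, *Aldh1a2*, *Aldh1a1*, *Crabp2*, *Aldh1a3* and *Cyp26b1*, and intervals of neighbours overlapped from *Aldh1a2* downwards and for *Rara* and *Cyp26a1*.

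Genes that bring retinol to the synthesis step were described from lists. In the luminal layer, the list for retinol uptake, storage and binding had 12 of 13 genes measured, of which 2 were higher and 1 lower in the eKO-labelled library than in control, beside 17.2% of all genes called in either direction. *Lrat*, which esterifies retinol for storage, had 4754, 694 and 21896 counts in the control-, eKO- and rLif-labelled libraries. Its log2 ratios were -2.96 for eKO against control and 5.12 for eKO with rLif against eKO, and the rLif-labelled library exceeded control by 2.16. *Lrat* thus shared its low library with *Cyp26a1* but went above control in the rLif-labelled library. *Stra6*, the cell surface retinol importer, and *Lrp2*, an endocytic receptor, were both higher in the eKO-labelled library than in control, with log2 ratios of 1.26 (interval 1.07 to 1.44) and 1.20 (interval 1.16 to 1.25).

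Among retinol and retinal oxidoreductases, 16 of 21 genes were measured in the luminal layer. In the eKO-labelled library against control, 4 were higher (*Adh1*, *Rdh1*, *Rdh5*, *Rdh9*) and 3 lower (*Adh7*, *Rdh11*, *Rdh12*), beside 17.2% of all genes called in either direction. *Rdh12*, a retinal reductase, had 609, 34 and 840 counts in the control-, eKO- and rLif-labelled libraries (log2 ratios -4.35 for eKO against control and 4.77 for eKO with rLif against eKO). *Rdh9* went the other way, with 271, 883 and 220 counts and log2 ratios of 1.52 and -1.86 in the same comparisons. *Rdh13* was called only for eKO with rLif against control (log2 ratio 1.28). *Rdh10*, the dehydrogenase of the first step in embryos, was named after its values were seen and had 4321, 4223 and 2451 counts, with no call. The oxidoreductases therefore did not share 1 direction.

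The list of Rxr partners and cofactors had 10 of 11 genes measured in the luminal layer. Of these, 0 were called in the eKO-labelled library against control, beside 17.2% of all genes. *Rxrb*, a partner of the Rar receptors, was lower in the rLif-labelled library than in control (log2 ratio -1.15, interval -1.27 to -1.03) and was not called in the eKO-labelled library (log2 ratio -1.04, interval -1.16 to -0.93). On the list of genes known to respond to retinoic acid, 18 were measured. In the eKO-labelled library against control, 3 were higher (*Nr2f2*, *Rarres2*, *Stra6*) and 2 lower (*Lrat*, *Tfap2c*), beside the same 17.2% of all genes. *Nr2f2*, which is also a stroma marker, had a log2 ratio of 1.26 and *Rarres2* of 1.42. The stroma list summed to 894 CPM in control and 1411 CPM in eKO. These sums include *Nr2f2* itself (51.1 and 122 CPM). Of the 10 genes on that list, 2 were called, *Col3a1* and *Nr2f2*, both higher. The part of stroma was not tested. The medians of the 4 lists in this comparison were 0.36 (uptake), 0.36 (oxidoreductases), 0.06 (Rxr partners) and -0.14 (responsive genes), beside 0.01 over all genes.

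In the rLif-labelled library against eKO, the uptake list had 1 gene higher, the oxidoreductases 2 higher and 4 lower, the Rxr list 0 called, and the responsive genes 3 higher and 1 lower, beside 15.6% of all genes called. Against control, the corresponding counts were 1 higher, 1 higher and 1 lower, 1 lower, and 1 higher and 1 lower, beside 9.16% of all genes. Over all lists together, 51 pathway genes beside the members were measured in the luminal layer. Of these, 8 were higher and 5 lower in the eKO-labelled library than in control, where 17.2% of all genes were called (1268 higher and 1436 lower of 15694).

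**Figure D4:**
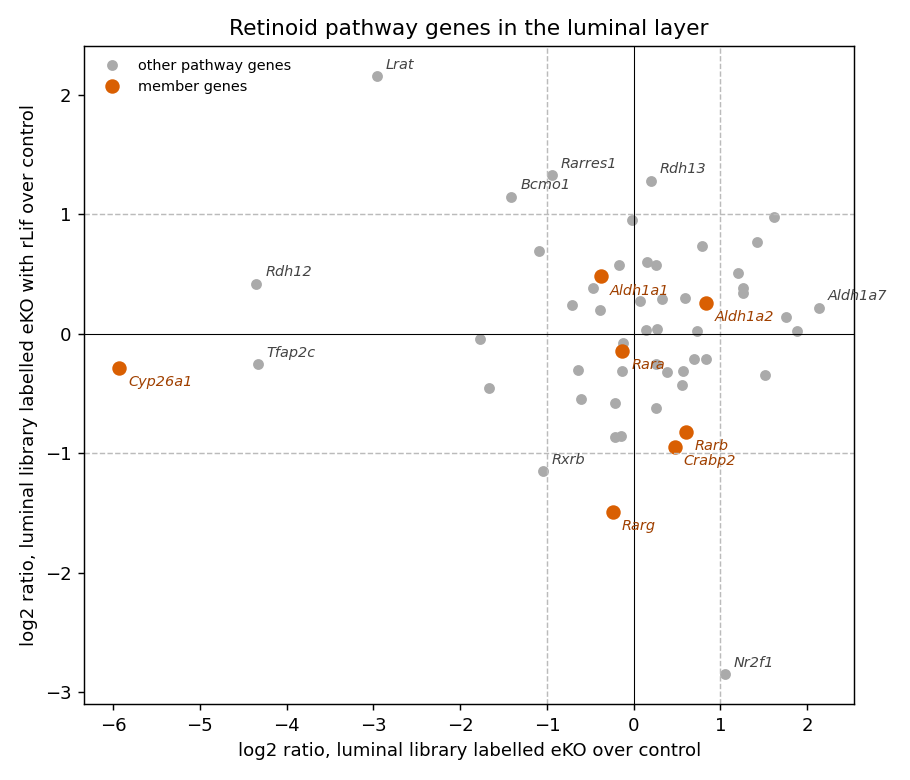
Luminal log2 ratios of the eKO-labelled library over control (horizontal) and of the rLif-labelled library over control (vertical), 1 point per gene, for 7 members and 48 other pathway genes with counts in all 3 libraries, with dashed lines at 2-fold. *Cyp26a1* lies farthest left at -5.93 and near 0 vertically (-0.29), *Rdh12* follows at -4.35 and 0.42, and *Lrat* lies at -2.96 and 2.16.

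In blastocysts the share of all genes called was itself lower, at 3.15% in eKO against control, 4.94% in eKO with rLif against control and 3.75% in eKO with rLif against eKO. In eKO against control, 1 of 6 uptake genes was lower (*Ttr*), 1 of 14 oxidoreductases was higher (*Adh1*), 0 of 11 Rxr partners were called and 1 of 18 responsive genes was higher (*Bhlhe40*). *Adh1*, an alcohol dehydrogenase that also oxidises retinol, had 4242, 13106 and 2138 counts in control, eKO and eKO with rLif (log2 ratios 1.59 for eKO against control and -2.61 for eKO with rLif against eKO). *Bhlhe40*, a transcriptional repressor, had 558, 1639 and 92 counts and log2 ratios of 1.52 and -4.15 in the same comparisons. Both were thus highest in the eKO group and lowest in the rLif group. The summed CPM of the 7 immune markers had this order too (61.7, 127 and 22.4). In eKO with rLif against eKO, 4 of them (*Csf1r*, *Emr1*, *Itgam*, *Lyz2*) were called lower. In eKO against control, 0 were called higher and 1 lower (*Cd3e*). The part of these markers in these differences was not tested. In eKO with rLif against eKO, 0 uptake genes were called, 3 oxidoreductases were lower (*Adh1*, *Adh7*, *Rdh12*), 0 Rxr partners were called and 1 responsive gene was lower (*Bhlhe40*). In eKO with rLif against control, 1 uptake gene (*Ttr*), 1 oxidoreductase (*Rdh12*) and 1 responsive gene (*Bhlhe40*) were lower and 0 Rxr partners were called.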

How the data were processed

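For each group the authors pooled blastocysts before extraction (NucleoSpin RNA) and, for the luminal layer, pooled RNA of several samples. They made SMART-seq v4 Ultra Low Input libraries, aligned reads to GRCm38/mm10 with HISAT2 and counted them per gene with featureCounts (Subread 2.0.0). Each tissue had 1 table, whose deposited values were not RPKM, as the study's methods name them, but whole-number counts of reads with a different total in each library. Settings for strand and multiple mapping, and the annotation release, were not given in the sources used here. Reads of near-identical genes could have been split or dropped. The deposited exon length of each gene was used for TPM.

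Groups followed the sample labels. Genes with at least 10 counts over the 3 libraries of a tissue were kept (15694 luminal, 14873 blastocyst). Sizes were scaled by TMM within a tissue (edgeR 4.0.16, R 4.3.3). Ratios of 2 counts carry exact 95% Clopper-Pearson intervals and levels exact Poisson intervals (scipy 1.17.1), for counting error only. A gene was called when its interval lay beyond a log2 ratio of 1. A library at 0 was set to a floor of 3 counts for lower bounds, for medians of members and lists, and for distances to *Cyp26a1*. The call rule was run on simulated counts with counting error only, as its intervals assume. That run cannot speak to variation between animals or to changes in genes with few counts. Alternatives were DESeq2 1.42.0 size factors, total counts, other filters and limits, and edgeR's exact test at dispersions of 0.1 and 0.4 with the study's limits (log2 fold change above 1, FDR below 0.05). The members, lists and rules were chosen with earlier results of these data known. From each list and tissue, up to 4 called genes with the highest summed count were named, with *Aldh1a7* and the 5 genes nearest to *Cyp26a1* in luminal ratios. Other list genes named in counts were named because they were called, and *Rdh10* and *Crabp1* after their values were seen. Positions run from the lowest to the highest exon coordinate of each row (GRCm38), and all 9 members are protein coding in GENCODE. Promoter windows came from RefSeq, which gave 12 windows for 7 of the 9 members.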

Additional observations from a re-analysis of the deposited data

Results flagged for a closer look

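For 5 members, the same comparison gave opposite directions in the luminal layer and in blastocysts, with counting intervals that excluded 0 in both tissues. The share of all genes with such opposite directions was not computed, so these 5 members cannot be set apart from the background. Intervals that excluded 0 were common, at 66.2% to 74.7% of genes measured in the luminal layer and 44.8% to 52.9% in blastocysts, by comparison. With 1 library per group, the difference between the tissues was not tested. *Cyp26a1* had a log2 ratio of 5.64 for eKO with rLif against eKO in the luminal layer and of -2.38 in blastocysts. *Cyp26b1* was at least 6.95-fold lower in eKO with rLif than in eKO in the luminal layer and at least 3.69-fold higher in blastocysts. *Aldh1a3* was at least 4.17-fold lower in eKO than in control in the luminal layer, while its log2 ratio in blastocysts was 1.70. *Aldh1a1* had log2 ratios of 0.86 in the luminal layer and -1.68 in blastocysts for eKO with rLif against eKO, and the luminal value was 0.11 with *Aldh1a7* summed in. *Rarb* had log2 ratios of -0.82 and 1.21 for eKO with rLif against control. No call was made for *Aldh1a1* or *Rarb* in either tissue. Luminal libraries are named here by their labels.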

How the results depend on the processing

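Of the 9 members, the numbers called as reported were 3, 1 and 2 in the luminal comparisons (eKO against control, eKO with rLif against control, eKO with rLif against eKO) and 0, 1 and 2 in the corresponding blastocyst comparisons. DESeq2 size factors and a filter of 1 count left every number as it was, with the same members called. Total count scaling did so except that it added *Rarg* in the luminal comparison of eKO with rLif against eKO, giving 3. With a summed count of at least 50, *Cyp26b1* in both tissues and luminal *Aldh1a3* were no longer tested, and the numbers were 1, 1 and 1 in the luminal layer and 0, 1 and 1 in blastocysts. A log2 limit of 0 gave 5, 5 and 8 in the luminal layer and 3, 4 and 3 in blastocysts. A log2 limit of 2 gave 1, 0 and 2, and then 0, 0 and 0. edgeR's exact test with the study's limits gave 2, 0 and 2, and then 0, 0 and 0, at a dispersion of 0.1. At a dispersion of 0.4 it gave 0 in every comparison, *Cyp26a1* included, and called 0.185% of all genes in luminal eKO against control. Scaling the luminal control and rLif-treated libraries without the library labelled eKO, chosen after seeing the data, still called *Rarg* alone.

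Of 98 recomputed log2 ratios of members, 94 stayed within their counting interval and 0 called ratios changed sign. The other 4 were *Cyp26a1* under total count scaling (-6.00, -0.47 and 5.53 in the luminal comparisons) and *Aldh1a1* summed with *Aldh1a7* (0.11 for eKO with rLif against eKO). Library order by CPM of total counts matched that by TPM for 8 of 9 members, *Aldh1a2* being the exception. Leaving out a replicate was not possible with 1 library per group, and no paired analysis was possible because each library was a pool. At this depth *Cyp26b1*, *Aldh1a3* and blastocyst *Crabp2* rested on a few counts, so only large differences in them could be seen.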
